A study of Mus musculus with 7 samples.

Results

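The keratins of simple epithelia and a set of trophoblast genes were examined in mini-oocytes, which are cells resembling oocytes that mouse embryonic stem cells give rise to once oocyte transcription factors are forced on. The genes were Krt7, Krt8, Krt18, Krt19, Hand1, Plet1, Cdx2, Elf5, Eomes and Ascl2, that is 10 of the 55364 genes listed, each found by its symbol. They were selected on their measured TPM, because the keratins and Hand1 were high on day 7. Their day 7 levels, and every difference from day 7, are therefore descriptions without a test. The RNA came from 7 libraries. There were 2 libraries of 4F-mini-oocytes on day 7 (1000 cells per sample), 3 of 4F-mini-oocytes on day 21 and 2 of 8F-mini-oocytes on day 21 (10 cells per sample in both day 21 groups).

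All groups were derived from female BVSC H18 mESCs of a hybrid 129/C57BL6 strain. The cells carried Nobox, Figla, Tbpl2 and Lhx8 as factors stabilised by the ligand Shield1. The 8F cells carried Stat3, Dynll1, Sub1 and Sohlh1 in addition. All were cultured on laminin with SCF and Y-27632, with Shield1 left out of fresh medium from day 12. No ovarian somatic cells were added, so the cells grew without the granulosa cells that surround an oocyte in vivo. Day, number of cells per sample and the withdrawal of Shield1 from fresh medium changed together, and their effects cannot be told apart. The NovaSeq instrument and the read length also differed among libraries that the methods do not name. Replicates were separate samples, but the labels do not say whether they came from separate cultures, so the p-values may measure technical spread.

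Keratins are the intermediate filament proteins of epithelia. A filament forms from equal parts of a type II chain, such as Krt7 or Krt8, and a type I chain, such as Krt18 or Krt19, and Krt8 with Krt18 is the pair that simple epithelia make first. In the mouse embryo this pair appears in the trophectoderm, the outer layer of the blastocyst that gives rise to the placenta. Cdx2, Elf5 and Eomes are transcription factors of the trophoblast stem cell. Ascl2 is an imprinted factor of the placental spongiotrophoblast, Plet1 a surface protein of extraembryonic ectoderm, and Hand1 a basic helix-loop-helix (bHLH) factor of trophoblast giant cells that is also present in extraembryonic mesoderm and heart.

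The depth was between 9506135 and 18027834 read pairs on genes per library, recovered from the steps of the low TPM values, and was lowest on day 7. At this depth 3 read pairs on a gene with 1 kb of exons correspond to 0.515 to 0.764 TPM, which is used below as the floor, per library and rescaled to the length of each gene. The top 10 genes of a library held 28.5% and 31.8% of its TPM on day 7 and 10.2% to 14.0% on day 21. All 10 oocyte markers listed (the zona pellucida genes, Gdf9, Bmp15, Oosp1, Ooep, Padi6, Nlrp5 and Dppa3) had at least 1 TPM in every library, with sums of 17070 to 20470 TPM on day 7, 47590 to 52160 in 4F and 37680 to 39030 in 8F on day 21. Of 10 granulosa markers, 3 were listed at 0 in both day 7 libraries, Inha, Amh and Fshr. Another 3 had at least 1 TPM in both, Kitl (11.04 and 7.03 TPM), Star (3.996 and 4.52 TPM) and Inhba (3.63 and 1.74 TPM). The sum of the list was 13.6 to 20.8 TPM on day 7.

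Krt8 and Krt18 lie next to each other on chromosome 15, 23697 bases apart and on opposite strands, and both were among the most abundant transcripts on day 7. Their promoters are shown with that of Krt7, also on chromosome 15. These genes share a chromosomal cluster and were higher in both day 7 libraries than on day 21, although Krt7 was far less abundant. The 250 bases before each transcription start were taken from RefSeq (GRCm38.p6). By the gene bounds given below, which come from another annotation, the Krt7 window lies within the gene. The Krt8 and Krt18 windows reach partly into theirs. Of the 10 genes, 8 matched by symbol, and Krt19 and Hand1 had no entry. Capitals mark the E-box, CANNTG, the class of site bound by bHLH proteins such as Hand1 and the induced factor Figla.
Krt8, chr15:102004343-102004592, minus strand: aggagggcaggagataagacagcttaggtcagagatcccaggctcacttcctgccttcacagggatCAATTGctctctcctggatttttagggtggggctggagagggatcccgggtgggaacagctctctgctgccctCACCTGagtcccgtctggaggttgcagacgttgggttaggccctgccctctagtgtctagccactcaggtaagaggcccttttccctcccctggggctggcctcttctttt
Krt18, chr15:102027966-102028215, plus strand: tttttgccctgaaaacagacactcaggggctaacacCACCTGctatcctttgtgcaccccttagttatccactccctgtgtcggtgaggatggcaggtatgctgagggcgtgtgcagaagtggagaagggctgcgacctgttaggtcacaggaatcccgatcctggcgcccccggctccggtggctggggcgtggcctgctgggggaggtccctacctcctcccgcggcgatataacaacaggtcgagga
Krt7, chr15:101412153-101412402, plus strand: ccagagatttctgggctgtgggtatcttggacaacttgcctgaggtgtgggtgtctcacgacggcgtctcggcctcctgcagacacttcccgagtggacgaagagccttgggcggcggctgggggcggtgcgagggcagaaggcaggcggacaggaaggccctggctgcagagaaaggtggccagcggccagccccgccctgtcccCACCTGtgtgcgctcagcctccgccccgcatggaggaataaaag
The Krt8 window held 2 E-boxes, 184 and 111 bases before the start, the Krt18 window held 1 at 214 bases and the Krt7 window 1 at 44 bases. An E-box was present in 66.2% of all 32851 promoter windows of this length, so the match is common. No TATAAA, found in 12.4% of windows, was present in any of these 3. The Krt7 window held 4 copies of GGGCGG, the GC box bound by Sp1, which 32.7% of windows contain. The GATA motif AGATAA occurred once in the Krt8 window, 239 bases before the start, and in 9.99% of windows. The homeobox motif TAATTG or TAATTA, the type bound by Nobox, was seen in 11.3% of windows and, of the 8 genes matched, in that of Eomes, 126 and 111 bases before the start. The AP-1 motif TGANTCA, present in 6.75% of windows, occurred in that of Plet1, 144 bases before the start, where a TATAAA also lay at 30 bases. Both strands were searched, E-box matches read the same on both, and a TAATTG or TAATTA match can overlap its own reverse complement. The GC content of the windows was 58.0% for Krt8, 60.4% for Krt18 and 66.0% for Krt7, against a median of 52.4% over all windows.

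The type II keratin Krt8 (chromosome 15, 101996698 to 102004482, mm10) was the most abundant of the genes studied in every library. On day 7 it reached 659.5 and 863 TPM and ranked 111th and 78th among all genes. On day 21 the 4F libraries gave 36.4, 128 and 50.1 TPM, and the 8F libraries 24.4 and 33.2 TPM. Both day 7 libraries thus stood above all 5 day 21 libraries, with the lower day 7 value 5.17 times the highest of day 21. The mean was 761 ± 144 TPM on day 7 (SD, n = 2) and 71.4 ± 49.2 TPM in 4F on day 21 (SD, n = 3), a ratio of 10.7. In these bulk samples, fewer cells of a type and less RNA per cell cannot be told apart. Krt8 was still detected by 334 to 1086 read pairs in each 4F library of day 21 and by 279 and 367 in 8F.

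Its partner Krt18 (chromosome 15, 102028180 to 102032027), the type I gene that lies in the type II cluster, was high on day 7 as well, at 436 and 658 TPM, which placed it 157th and 109th. On day 21 it had 1.19, 8.81 and 3.82 TPM in 4F and 1.43 and 0.246 TPM in 8F. These values rest on 8, 55 and 23 read pairs in 4F and on 12 and 2 in 8F. The day 7 mean of 547 ± 157 TPM (SD, n = 2) was 119 times the 4F mean on day 21 of 4.61 ± 3.87 TPM (SD, n = 3). The second 8F library was below the floor of 3 read pairs for this gene.

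The 2 partners therefore differed in how far apart their levels were on the 2 days. The ratio of Krt8 to Krt18, which compares TPM and so accounts for exon length, was 1.51 and 1.31 on day 7. On day 21 it was 30.6, 14.5 and 13.1 in 4F and 17.0 and 135 in 8F, the last resting on 2 read pairs of Krt18. No day 21 library was near the day 7 ratios. The sum of the type II chains Krt7 and Krt8 over that of the type I chains Krt18 and Krt19 gave 1.44 and 1.13 on day 7 and the same values as the ratio above, or 17.1 in place of 17.0, on day 21.

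**Figure D1:**
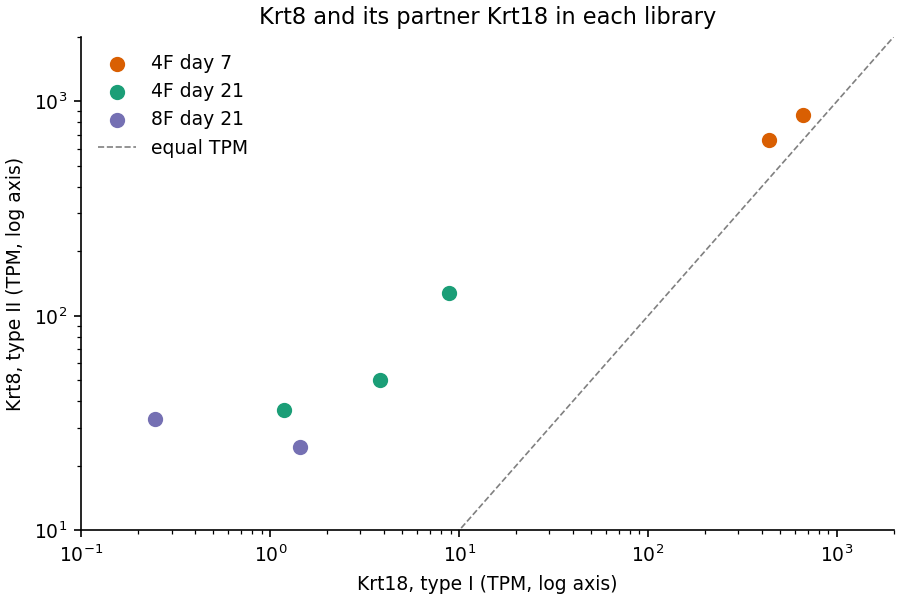
Krt8 against Krt18 in each of the 7 libraries, in TPM on log axes, with a dashed line where both are equal. The 2 day 7 libraries lie close to the line, at ratios of 1.51 and 1.31, and the 5 day 21 libraries lie far to its left, at ratios of 13.1 to 135.

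Krt19 (chromosome 11, 100140810 to 100148665), the type I keratin without the tail domain of the others, was detected on day 7 alone. It had 37.0 and 127 TPM there, from 269 and 1232 read pairs, and was listed at 0 in all 5 libraries of day 21. Against 3 read pairs per library, the day 7 mean of 82.1 ± 63.8 TPM (SD, n = 2) was at least 213-fold higher than 4F and at least 287-fold higher than 8F on day 21. The second day 7 library had 3.44 times the level of the first.

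Krt7 (chromosome 15, 101411043 to 101430313), a type II keratin of ducts and of trophoblast, was at 24.3 and 25.1 TPM on day 7. It was listed at 0 in the 3 libraries of 4F on day 21 and had 0.0730 and 0.0251 TPM in 8F, from 3 and 1 read pairs. The day 7 mean was at least 243-fold higher than 4F on day 21. Its exons span 7049 bases in the annotation, against 1437 to 1958 for the other simple keratins, and TPM divides by this length. With 673 and 923 read pairs on day 7, it had more reads than Krt19 in the first library and fewer in the second.

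Hand1 (chromosome 11, 57828705 to 57832818) varied most between the day 7 libraries. It had 12.0 TPM in the first and 63.6 TPM in the second, from 94 and 663 read pairs, a ratio of 5.30. On day 21 it was listed at 0 in all 4F libraries and in 1 of 2 8F libraries, and the other had 0.172 TPM from 2 read pairs. The day 7 mean of 37.8 ± 36.5 TPM (SD, n = 2) was at least 105-fold higher than 4F on day 21. Krt8 and Krt18 differed between the same day 7 libraries by ratios of 1.31 and 1.51, all in the direction of a higher second library, while Krt7 and Plet1 differed by ratios of 1.03 and 0.936.

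Plet1 (chromosome 9, 50494525 to 50505482) was lower than the keratins but alike in both day 7 libraries, at 6.41 and 6.00 TPM from 49 and 61 read pairs. It was listed at 0 in all 5 day 21 libraries. The day 7 mean was at least 16.9-fold higher than 4F and at least 22.8-fold higher than 8F on day 21. Across the set, 6 of 10 genes, Krt7, Krt8, Krt18, Krt19, Hand1 and Plet1, had both day 7 libraries above all day 21 libraries, and of these 4 were listed at 0 throughout 4F on day 21. The share of all genes with this order was not computed, and the count follows in part from the choice of the genes. By another criterion and in 4F alone, 40.6% of all genes tested (8847 of 21780) differed between the days, and 15.3% (3331) were lower on day 21. That criterion was limma on log2(TPM + 1) with an adjusted p under an FDR of 0.05. It was not applied to these 6, since their day 7 levels chose them.

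**Figure D2:**
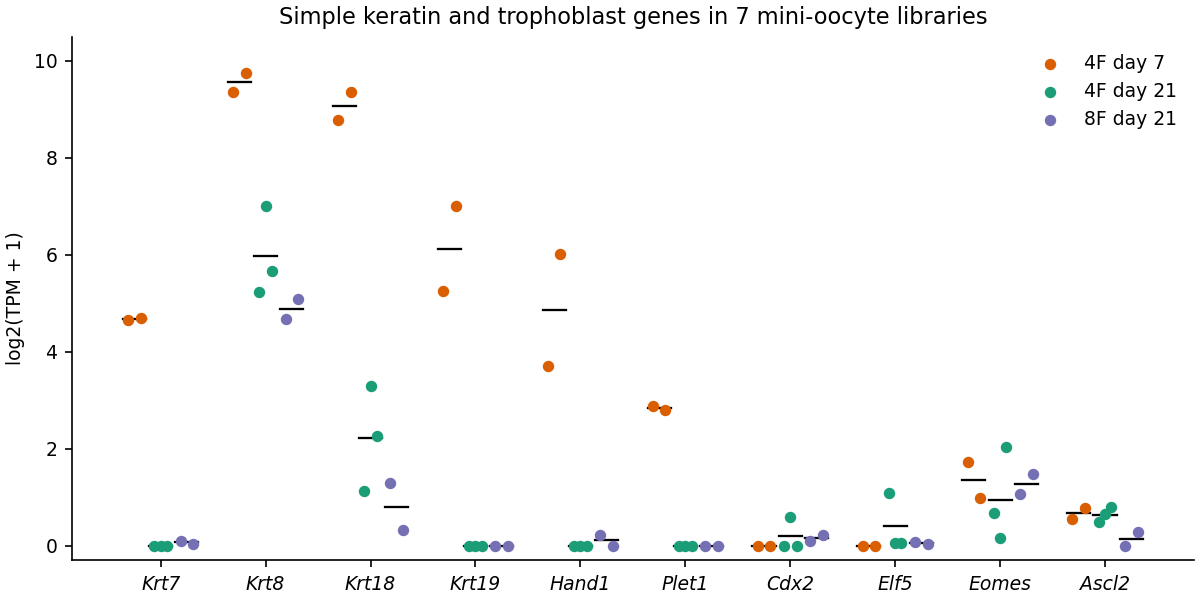
Level of each gene in the 7 libraries as log2(TPM + 1), 1 point per library, with the group mean as a line, for 4F on day 7 (orange, n = 2), 4F on day 21 (green, n = 3) and 8F on day 21 (violet, n = 2). The day 7 points of Krt7, Krt8, Krt18, Krt19, Hand1 and Plet1 lie above all day 21 points, whereas Cdx2 and Elf5 are at 0 on day 7.

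The 4 transcription factors that define trophoblast stem cells and their progeny did not share this pattern. Cdx2 (chromosome 5, 147300805 to 147307270) was listed at 0 in both day 7 libraries, where 3 read pairs would allow up to 0.338 TPM. On day 21 it was at 0, 0.509 and 0 TPM in 4F, the middle value from 5 read pairs, and at 0.0759 and 0.157 TPM in 8F. Elf5 (chromosome 2, 103411688 to 103450989) was likewise at 0 on day 7, with an upper limit of 0.130 TPM. It had 1.13 TPM, from 31 read pairs, in the first 4F library of day 21 and between 0.0301 and 0.0584 TPM, from 1 or 2 read pairs, in the other 4.

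Eomes (chromosome 9, 118478212 to 118486132) was near 1 TPM in all groups. It had 2.33 and 0.968 TPM on day 7, 0.591, 0.111 and 3.07 TPM in 4F and 1.09 and 1.77 TPM in 8F on day 21, so that the 3 groups overlapped. Ascl2 (chromosome 7, 142966829 to 142969264) stayed under 1 TPM in every library, at 0.471 and 0.708 TPM on day 7, 0.395 to 0.735 TPM in 4F and 0 and 0.218 TPM in 8F, from at most 6 read pairs. Of the trophoblast genes of the set, Cdx2 and Elf5 were thus not detected on day 7, Ascl2 was near its floor of 3 read pairs and Eomes was low. Hand1, at 12.0 and 63.6 TPM, and Plet1, at 6.41 and 6.00 TPM, were detected in both day 7 libraries.

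The members were compared between 8F and 4F on day 21, a contrast that uses no day 7 level of theirs in the difference. Of the 10, 7 reached 1 TPM in 2 or more libraries and were tested, and Cdx2, Elf5 and Ascl2 did not. Krt7, Krt19, Hand1 and Plet1 passed through their day 7 levels and were at or under the floor of 3 read pairs in the day 21 libraries, which leaves Krt8, Krt18 and Eomes to compare. Of these 3, 0 passed FDR 0.05 by limma, 0 had an unadjusted p under 0.05, and 0 were called by voom on the recovered read pairs. Among all genes tested, 8.37% (1822) passed, 3.95% (861) as higher and 4.41% (961) as lower in 8F.

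Krt8 was lower in both 8F libraries than in all 3 4F libraries. The log2 difference was -1.09 (95% confidence interval -2.28 to 0.10, limma, adjusted p = 0.265), so the interval includes no difference. It was -0.57 without the second 4F library, which had the highest Krt8 of day 21, and -1.46 without the first. For Krt18 the groups overlapped and the log2 difference was -1.43 (95% confidence interval -2.98 to 0.12, limma, adjusted p = 0.26). It moved to -2.29 with a pseudocount of 0.1 and to -0.65 with a pseudocount of 5, with values close to the floor. For Eomes the difference was 0.32 (95% confidence interval -1.16 to 1.80, limma, adjusted p = 0.836), and it ranged from -0.08 to 0.86 as single libraries were left out.

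Neighbouring and copied genes limit the identity of some of these reads, because the kit marks strand but the counting is not stated to use it. The antisense gene Gm36026 shares 101 exonic bases, 5.16% of the exon length, with Krt8. It had 22.6 and 44.1 TPM on day 7 and at most 3.49 TPM on day 21, and its reads and those of Krt8 cannot be told apart where they overlap. Plet1os shares 261 bases, 13.4% of the exon length, with Plet1 and had nearly the same level, 5.53 and 5.85 TPM on day 7 and 0 in all libraries of day 21. The overlaps of Eomes with Gm33460 and of Krt7 with Gm671 were 2.84% and 1.09% of the exon length. The pseudogene Krt8-ps, a copy of Krt8 with which uniquely mapped reads may be split, was higher in 4F on day 21 than in the other groups. It was at 3.37 and 1.01 TPM on day 7, 17.3, 14.0 and 21.3 TPM in 4F and 0.726 and 0.843 TPM in 8F on day 21.

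The other 50 keratins include those of hair, epidermis and stratified epithelia, and stood below Krt8, Krt18 and Krt19 on day 7. Krt35, Krt80 and Krt87 were, like the simple keratins, higher in both day 7 libraries than in all libraries of day 21. Their levels were low, with Krt35 at 2.45 and 2.88 TPM on day 7 and at most 1.63 TPM on day 21. All 54 keratin genes listed lie on chromosome 11 (27, mainly type I) or chromosome 15 (27, mainly type II). Of the 50, 28 were under 1 TPM in every library, among them Krt5 and Krt15, which were listed at 0 throughout, and 31 were at 0 in both day 7 libraries, among them Krt14. The highest of the 50 on day 7 was Krt79 at 28.9 TPM. The 4 simple keratins made up 93.8% and 96.3% of all keratin TPM on day 7, 15.1%, 43.2% and 20.6% in 4F on day 21, and 29.2% and 28.5% in 8F. These shares follow in part from the choice of the genes.

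Of the 15 other keratins tested, 2 rose in 4F from day 7 to day 21 and 0 fell, against 25.3% and 15.3% of all genes (5516 and 3331, limma, FDR 0.05). The median log2 difference of the 15 was 0.59, against 0.17 over all genes tested. Krt79, a type II keratin of hair follicle and sebaceous duct whose gene ends 56373 bases from Krt8, had 28.9 and 19.9 TPM on day 7 and 85.9, 92.1 and 111 TPM in 4F on day 21. The groups did not overlap, and the log2 difference was 1.95 (SE 0.32, limma, adjusted p = 0.00375). In 8F it was at 9.86 and 20.8 TPM, a log2 difference to 4F on day 21 of -2.65 (SE 0.32, limma, adjusted p = 0.0085), which missed the threshold without the first 8F library (-2.15, adjusted p = 0.0508). Krt84, a hair keratin, rose from 4.59 and 7.91 TPM to between 21.7 and 26.8 TPM in 4F (log2 difference 1.81, SE 0.26, limma, adjusted p = 0.00201), and the 8F values of 22.8 and 23.1 TPM lay within that range. Krt79 took 29.2% to 42.4% of keratin TPM in 4F on day 21, more than Krt8 in 2 of 3 libraries.

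**Figure D3:**
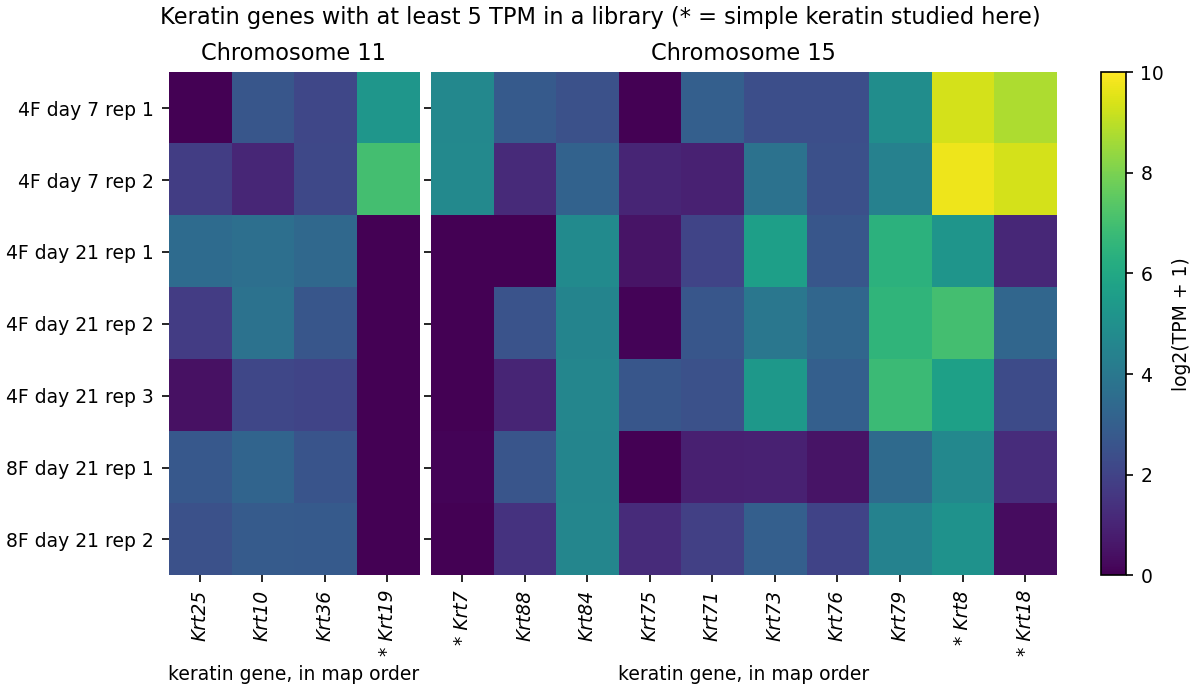
Heat map of log2(TPM + 1) for the keratin genes with at least 5 TPM in a library, in map order on chromosomes 11 and 15, with the 7 libraries as rows and an asterisk for the simple keratins studied. Krt8, Krt18 and Krt19 are bright on day 7, Krt19 and Krt7 are dark on day 21, and Krt79 is brightest in the 3 libraries of 4F on day 21, at 85.9 to 111 TPM.

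Proteins that anchor or bind keratin filaments were the next group, 16 genes of desmosomes, plakins and regulators, of which 14 were tested. In 4F, 8 fell and 3 rose from day 7 to day 21, with a median log2 difference of -0.76. Over all genes tested 15.3% fell, 25.3% rose and the median was 0.17. The 8 became 5 without the second day 7 library, and the 3 became 1 with quantile normalization or voom. Over all genes 52.0% and 37.3% of calls were higher there, against 62.3% in the main fit that gave the shares. Eppk1, the giant plakin epiplakin that binds keratin bundles, fell from 22.6 and 18.5 TPM to at most 0.883 TPM (log2 difference -4.07, SE 0.42, limma, adjusted p = 0.000574). Ppl, the plakin periplakin, fell from 8.91 and 9.002 TPM to between 0.173 and 0.601 TPM (-2.85, SE 0.34, limma, adjusted p = 0.00105). The desmosomal linker Dsp, which ties keratins to the junction, was at 134 and 149 TPM on day 7 and 53.0, 55.8 and 76.3 TPM in 4F on day 21 (-1.20, SE 0.21, limma, adjusted p = 0.00513). Fam83h, a regulator of keratin organisation, went from 4.84 and 8.52 TPM to 0, 3.27 and 0.229 TPM (-2.10, adjusted p = 0.0498 by limma), a call lost in 11 of 15 other settings. Pkp4 and Pnn, highly expressed proteins of cell junctions and of nuclear speckles, were higher on day 21 (0.90 and 0.91, limma, adjusted p = 0.00142 and 0.0124), which quantile normalization reduced to 0.28 and 0.30, past the threshold in neither. Pnn also missed it without the first (adjusted p = 0.0546) or the second day 7 library (adjusted p = 0.0871).

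In 8F on day 21, 2 of these 14 genes were lower than in 4F and 0 were higher, against 4.41% and 3.95% of all genes. Dst, the plakin dystonin that anchors keratins at hemidesmosomes, was at 160 and 158 TPM on day 7, 96.1, 87.0 and 85.5 TPM in 4F and 38.2 and 38.8 TPM in 8F. Its log2 difference between 8F and 4F was -1.19 (SE 0.10, limma, adjusted p = 0.00361), and it passed in all 16 other settings without a replicate block. Dsp was at 19.1 and 27.0 TPM in 8F, a log2 difference of -1.38 (SE 0.21, limma, adjusted p = 0.0162), lost without the first 8F library (-1.14, adjusted p = 0.151) or the second (-1.62, adjusted p = 0.0686).

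Intermediate filament genes outside the keratins numbered 16, of which 11 were tested. In 4F, 4 rose and 2 fell from day 7 to day 21, against 25.3% and 15.3% of all genes, with a median log2 difference of 0.62. Bfsp1, known as filensin of the lens, rose from 15.5 and 50.5 TPM to 809, 1446 and 936 TPM (log2 difference 5.15, SE 0.50, limma, adjusted p = 0.000453), above every keratin. In 8F it was at 185 and 276 TPM, a log2 difference to 4F of -2.18 (SE 0.50, limma, adjusted p = 0.0464) that passed in 6 of 16 other settings. Nefh, the heavy neurofilament chain, rose from 6.13 and 8.53 TPM to 80.5, 37.3 and 83.1 TPM (2.96, SE 0.37, limma, adjusted p = 0.00119), and Sync, or syncoilin, fell from 6.95 and 5.59 TPM to at most 0.442 TPM (-2.54, SE 0.39, limma, adjusted p = 0.00284). Vim, the filament of mesenchymal cells, had at most 0.054 TPM on day 7, and Des was at 0 there. Between 8F and 4F, 1 gene was higher and 2 were lower, against 3.95% and 4.41% of all genes. The nuclear lamin Lmnb2 was lower in 8F at 31.8 and 33.6 TPM against 49.4 to 63.3 TPM in 4F (-0.70, limma, adjusted p = 0.0387), a call kept in 4 of 16 other settings. The neuronal filament gene Prph, named after its values were seen because it is the 1 that was higher, had 2.23 and 1.06 TPM in 8F and at most 0.119 TPM in 4F (1.31, limma, adjusted p = 0.0477), which did not pass without the first 8F library or without any single 4F library of day 21.

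Trophoblast stem cell and trophectoderm genes other than the members were 25, of which 23 were tested. In 4F, 9 fell and 6 rose from day 7 to day 21, against 15.3% and 25.3% of all genes, with a median log2 difference of -0.49. The 9 stayed between 7 and 9 as single libraries were left out, whereas the 6 became 3 without the second day 7 library or the first 4F library of day 21. The sum of the list was 773 to 1219 TPM on day 7, 417 to 443 TPM in 4F and 371 to 411 TPM in 8F on day 21, and 12 of the 25 had at least 1 TPM in all 4F libraries of day 21. Rhox6, an X-linked homeobox gene of placenta and germ cells, had 321 and 591 TPM on day 7 and was listed at 0 in all 5 libraries of day 21 (log2 difference -8.77, SE 0.38, limma, adjusted p = 4.71e-05). Its neighbour Rhox9 had 71.3 and 90.9 TPM on day 7 and 0 in 4F on day 21 (-6.35, SE 0.36, limma, adjusted p = 8.31e-05). The water and glycerol channel Aqp3 fell from 45.1 and 134 TPM to 0, 2.77 and 0 TPM (-5.66, SE 0.76, limma, adjusted p = 0.00162). For genes at 0 these differences depend on the pseudocount.

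The other 6 that fell, named after their values were seen, were the tight junction gene Cldn6, the transcription factors Gata3, Tead4 and Gata2, the Hippo pathway co-activator Wwtr1 and the endocytic receptor Lrp2. Cldn6 went from 45.5 and 34.7 TPM to 0, 1.34 and 0 TPM. Gata3, which acts beside Cdx2 in trophectoderm, was at 8.30 and 10.6 TPM on day 7 and at most 0.107 TPM in 4F on day 21, and Tead4, which acts upstream of both, at 10.2 and 12.1 TPM and at most 0.640 TPM. Gata3 and Tead4 were therefore detected on day 7 in libraries where Cdx2 was listed at 0. The 6 that rose included Esrrb, Tfap2a, Yap1 and Pcsk6, also named after their values were seen. Esrrb went from 3.92 and 12.3 TPM to 28.3, 37.5 and 44.3 TPM (2.20, limma, adjusted p = 0.00861). Tfap2a (1.45, limma, adjusted p = 0.0314), Yap1 (0.50, limma, adjusted p = 0.0237) and Pcsk6 (2.37, limma, adjusted p = 0.0329) followed. Furin, the protease that activates many secreted ligands, went from 23.0 and 39.5 TPM to between 99.5 and 119 TPM (1.78, SE 0.23, limma, adjusted p = 0.00141). Atp1b1, the sodium pump subunit used in blastocyst expansion, went from 42.0 and 34.8 TPM to 92.9, 95.03 and 97.4 TPM (1.29, SE 0.14, limma, adjusted p = 0.000698). It was the 1 gene of this list that differed between 8F and 4F, at 42.6 and 51.7 TPM in 8F (-1.004, SE 0.14, limma, adjusted p = 0.0122), and the call was lost without either 8F library (adjusted p = 0.0965 and 0.0519).

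Genes of differentiated trophoblast numbered 32, of which 15 were tested. In 4F, 6 fell and 5 rose from day 7 to day 21, against 15.3% and 25.3% of all genes, with a median log2 difference of -0.23. The 5 became 3 without the first day 7 library or without either 8F library. Those that fell included imprinted and X-linked genes of the placenta. Phlda2, a growth-restraining imprinted gene, fell from 163 and 265 TPM to 0, 0.616 and 0 TPM (-7.47, SE 0.43, limma, adjusted p = 8.46e-05). Peg10, an imprinted gene derived from a retrotransposon, fell from 663 and 932 TPM to 14.98, 13.4 and 28.4 TPM (-5.38, SE 0.33, limma, adjusted p = 9.79e-05). Esx1, an X-linked homeobox gene of the labyrinth, fell from 51.4 and 33.1 TPM to 0, 0.696 and 0 TPM (-5.15, SE 0.45, limma, adjusted p = 0.000322). Of the 32, 13 were listed at 0 in both day 7 libraries and 13 had at least 1 TPM in both. Those at 0 included the placental lactogens Prl3d1 and Prl3b1 of giant cells, Gcm1 and Synb of syncytiotrophoblast, and Tpbpa of spongiotrophoblast. Those detected included Syna, the other syncytin, at 9.56 and 16.5 TPM, and Dlx3, a homeobox gene of the labyrinth, at 9.29 and 26.9 TPM.

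Among the genes that rose, Cited2, a transcriptional co-regulator, went from 43.1 and 92.0 TPM to 273, 332 and 265 TPM (2.18, SE 0.30, limma, adjusted p = 0.0018). Bhlhe40, a bHLH repressor also known as Stra13, rose from 24.1 and 23.4 TPM to 104, 116 and 96.2 TPM (2.10, SE 0.12, limma, adjusted p = 8.46e-05). It was the 1 gene of this list that was lower in 8F than in 4F on day 21, at 68.1 TPM in both libraries (-0.62, SE 0.12, limma, adjusted p = 0.0298), a call lost when either 8F library was left out (adjusted p = 0.191 and 0.169). The sums of the list were 1016 to 1457 TPM on day 7, 495 to 571 TPM in 4F and 410 to 441 TPM in 8F on day 21.

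Hand1 forms dimers with the E proteins Tcf3, Tcf4 and Tcf12, and the Id proteins bind E proteins without binding DNA. Of 12 such partners and regulators, 11 were tested, and 4 fell and 1 rose in 4F from day 7 to day 21 (all genes 15.3% and 25.3%), with a median log2 difference of -1.11. The 4 became 2 without the first day 7 library and 7 with voom, where the 1 became 0. With voom 37.3% of the calls over all genes were higher, against 62.3% in the main fit that gave the shares. Id4 fell from 28.8 and 29.0 TPM to between 5.60 and 8.00 TPM (-1.96, SE 0.25, limma, adjusted p = 0.00123). Id2 fell from 158 and 107 TPM to 42.5, 53.8 and 25.4 TPM (-1.72, limma, adjusted p = 0.00629), and Tcf4 from 15.9 and 9.54 TPM to between 3.07 and 4.64 TPM (-1.51, limma, adjusted p = 0.0184), both lost without the first day 7 library (adjusted p = 0.0655 and 0.0767). Hand2, the paralog of Hand1, was listed at 0 on day 7.

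Between 8F and 4F on day 21, 2 of these 11 genes were higher and 1 was lower (all genes 3.95% and 4.41%), while Hand1 itself was at or under the floor in both groups. Id1 had 664 and 519 TPM in 8F against 54.6, 70.4 and 107 TPM in 4F, and 176 and 231 TPM on day 7 (8F minus 4F 2.96, SE 0.29, limma, adjusted p = 0.00508). The call was lost without the first 8F library (2.79, adjusted p = 0.0689). Id3 had 126 and 141 TPM in 8F against 17.9 to 49.8 TPM in 4F (2.05, SE 0.44, limma, adjusted p = 0.0387), kept in 7 of 16 other settings. Tcf3 was lower in 8F, at 83.2 and 92.6 TPM against 134 to 186 TPM (-0.90, SE 0.17, limma, adjusted p = 0.0289), kept in 11 of 16. Id1 in 4F was lower on day 21 than on day 7 (-1.43, SE 0.29, limma, adjusted p = 0.0084), a call lost without the second day 7 library (-1.23, adjusted p = 0.0775).

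Markers of other cell types that make simple keratins or Hand1 were measured in the same libraries. Their part in the keratin and Hand1 levels was not tested. Of 20 extraembryonic endoderm genes, 8 were listed at 0 in both day 7 libraries, among them Sox17, Foxa2, Hnf4a and Ttr, and Gata6 had at most 0.039 TPM there. The sum was 567 to 761 TPM on day 7, 534 to 589 TPM in 4F and 530 to 585 TPM in 8F on day 21. Of the 10 tested, 5 fell and 2 rose in 4F (all genes 15.3% and 25.3%), with a median log2 difference of -2.04. The homeobox gene Rhox5 went from 118 and 140 TPM to at most 1.42 TPM (-6.60, SE 0.53, limma, adjusted p = 0.000247), the matrix protein Sparc from 71.8 and 63.0 TPM to at most 1.64 TPM (-5.63, SE 0.53, limma, adjusted p = 0.000419), and the basement membrane collagen Col4a2 from 138 and 67.0 TPM to between 1.80 and 2.92 TPM (-4.94, SE 0.44, limma, adjusted p = 0.000346). The laminin chain Lamb1 rose to between 468 and 537 TPM (3.00, SE 0.14, limma, adjusted p = 5.93e-05). Gata4, a factor of primitive endoderm and of gonadal cells, rose in 4F from 3.07 and 1.57 TPM to between 32.4 and 46.3 TPM (3.67, SE 0.26, limma, adjusted p = 0.000153). It was also the 1 gene of the list that was higher in 8F, at 95.4 and 87.8 TPM (1.17, limma, adjusted p = 0.0423), kept in 8 of 16 other settings.

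Amnion and extraembryonic mesoderm are another embryonic site of Hand1. Of 16 genes listed, 12 were under 1 TPM in both day 7 libraries and 8 were at 0 there, among them Kdr, Foxf1 and Pmp22, with a sum of 12.4 to 25.7 TPM on day 7, 43.3 to 45.7 TPM in 4F and 46.3 to 58.2 TPM in 8F on day 21. The highest was the T-box factor Tbx4, at 22.4 and 7.32 TPM on day 7 and 22.8 to 36.1 TPM on day 21. Of 5 tested, 2 rose in 4F (all genes 25.3%) and 0 fell, the transcription factors Isl1 (2.35, SE 0.48, limma, adjusted p = 0.00845) and Tbx3 (2.00, limma, adjusted p = 0.0181, kept in 9 of 16 other settings), both from under 2 TPM on day 7. Surface ectoderm and epithelial genes had a sum of 342 to 392 TPM on day 7, 360 to 427 TPM in 4F and 327 to 380 TPM in 8F on day 21. Of 8 tested, 2 rose and 1 fell in 4F, near the 25.3% and 15.3% of all genes. With voom on read pairs 5 fell, but there 37.3% of the calls over all genes were higher, against 62.3% in the main fit. The epithelial regulators Grhl3 (from 1.83 and 1.099 TPM to between 23.3 and 33.6 TPM, log2 difference 3.60, limma, adjusted p = 0.000156) and Grhl1 (1.73, limma, adjusted p = 0.0147, lost without the second day 7 library at adjusted p = 0.107) rose. The adhesion molecule Epcam fell from 117 and 114 TPM to between 55.2 and 69.1 TPM (-0.85, SE 0.13, limma, adjusted p = 0.003). Cdh1, or E-cadherin, had 116 and 149 TPM on day 7 and 142 to 200 TPM in 4F on day 21.

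**Figure D4:**
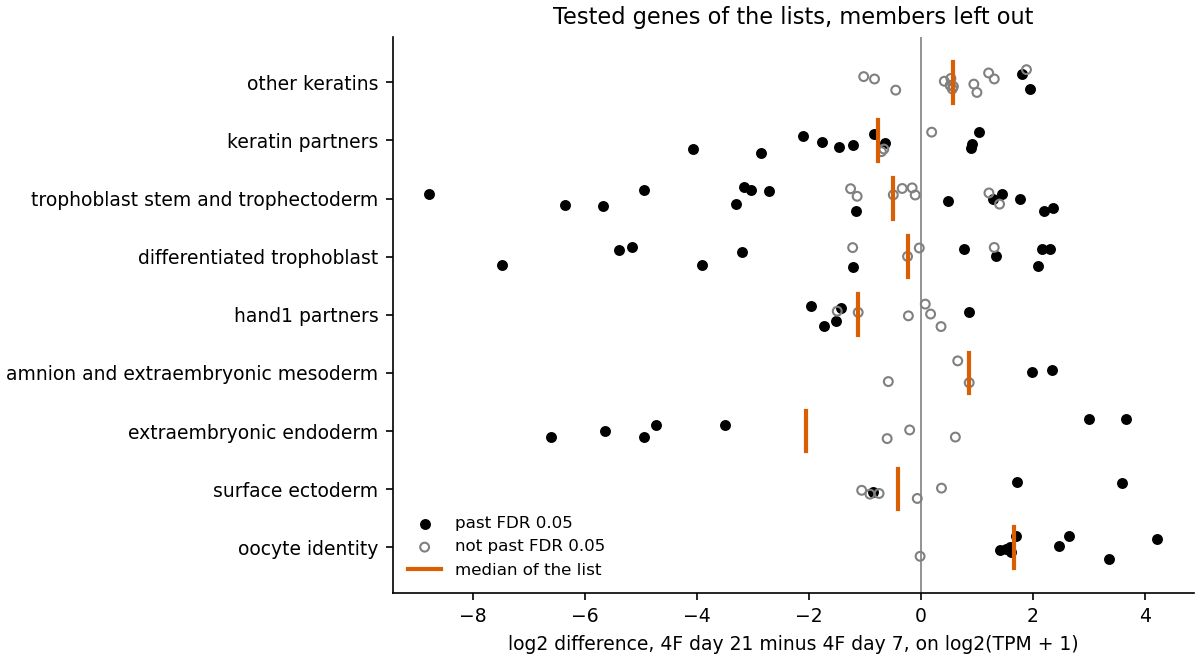
Log2 difference of each tested gene, 4F on day 21 minus 4F on day 7 on the log2(TPM + 1) scale, by list, with filled points past FDR 0.05 (limma), open points not past it and the list median in orange. The simple keratins and the trophoblast genes studied are left out. Medians lie at -2.04 for extraembryonic endoderm, -0.49 for trophoblast stem and trophectoderm and 1.66 for oocyte identity, against 0.17 over all genes tested.

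Of the remaining lists, 9 of 10 oocyte genes rose in 4F from day 7 to day 21 and 0 fell, with a median log2 difference of 1.66. The shares over all genes, also for the lists that follow, were 25.3% and 15.3%. Gdf9, the oocyte growth factor, had 196 and 303 TPM on day 7 and 3952 to 4975 TPM in 4F on day 21 (4.23, SE 0.21, limma, adjusted p = 6.45e-05). Of 5 granulosa genes tested, 0 rose and 1 fell, Star (-1.27, limma, adjusted p = 0.0267, kept in 9 of 15 other settings), and of 5 pluripotency genes tested, 1 rose, Pou5f1 (2.77, limma, adjusted p = 0.000479), and 1 fell, Zfp42 (-1.43, limma, adjusted p = 0.00625). All 10 oocyte genes were present in every library, although on day 7 Bmp15, at 23.5 and 31.6 TPM, and Gdf9 lay below Krt8 and Krt18. Between 8F and 4F, Bmp15 was higher and Nlrp5 lower in 8F (0.59 and -0.84, limma, adjusted p = 0.046 and 0.0488), each kept in 6 of 16 other settings, and Klf2 was higher (2.51, limma, adjusted p = 0.0282), kept in 11. Prph aside, 14 calls were named between 8F and 4F over all lists, of which 1 passed without the first 8F library, 3 without the second, and 7, 5 and 7 without the 4F libraries of day 21, in replicate order.

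The genes whose levels followed the keratins and Hand1 most closely were found by the root mean square difference of log2(TPM + 1) over the 7 libraries, after each gene was centred on its mean. This is a description, and day, cells per sample and depth differ among these libraries. For Krt8 they were Vsnl1 (0.40), Erbb3 (0.44), Igfbp6 (0.45), Irf2bpl (0.48) and Lasp1 (0.49). Igfbp6 had 588 and 770.3 TPM on day 7, 18.4 to 56.5 TPM in 4F and 26.1 and 29.1 TPM in 8F on day 21. For Krt18 they were Phlda2 (0.79), Nrk (0.94), Aqp3 (0.98), Rhox9 (1.06) and Rhox6 (1.07). The measure uses the day 7 values that chose Krt18, so nearness to other genes high on day 7 is no further evidence. Krt8 and Krt18 were farther from each other, at 1.59.

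For Krt19 the nearest were 3830417A13Rik (0.13), Nrk (0.39), Rhox9 (0.40), Mt1 (0.45) and the pseudogene Gm14593 (0.46), of which 3830417A13Rik had 40.5 and 101 TPM on day 7 and was listed at 0 in all libraries of day 21. For Hand1 the nearest was Serpinb9d (0.14), a member of a serine protease inhibitor cluster, with 10.8 and 59.6 TPM on day 7. The next were Gm23479 (0.16), Mir7090 (0.20), Mir466 (0.25) and Gm22322 (0.25), small RNA genes for which 1 read is worth many TPM because of their short length.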

How the data were processed

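Mini-oocyte RNA was measured with a stranded SMART-seq kit in 7 libraries. Reads were trimmed by the authors (Trim Galore), mapped to mm10 (HISAT2), cleared of rRNA (bedtools) and counted on GENCODE genes where uniquely mapped (featureCounts), a read shared by genes being split. The authors deposited TPM, which divides by exon length and gives every library the same total. Their own tests used edgeR on counts that were not used here. Groups and replicates were taken from the labels, with 0 columns of no sample.

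A gene entered the tests when it reached 1 TPM in 2 or more libraries (21780 of 55364). The values log2(TPM + 1) were fitted with limma 3.58.1 (R 4.3.3, eBayes with trend) as 3 groups in 1 fit, two-sided, with Benjamini-Hochberg adjustment over all genes tested at FDR 0.05. This scale understates changes of low genes. Read pairs were recovered from the steps of low TPM values and exon lengths of GENCODE vM21, which matched 54312 identifiers with their version, and 95.9% to 97.2% of low values were whole reads within 0.02. Coordinates are from vM21 on mm10. The fit was tested on simulated data.

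The genes studied and the lists were chosen with earlier results of these data known. Listed genes are named by rule. For day 21 minus day 7 these are the 3 largest changes past FDR 0.05 with groups apart and a higher mean of 5 TPM or more, for 8F minus 4F all genes past FDR 0.05 with 5 TPM or more, and per list up to 2 genes of highest mean. Genes named at 0, or as exceptions, were picked after their values were seen. Alternatives were other pseudocounts, filters, scalings and tools, a replicate block and each library left out.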

Additional observations from a re-analysis of the deposited data

How the results depend on the processing

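Krt8 and Krt18 did not pass FDR 0.05 between 8F and 4F on day 21 under any of 17 other settings, nor Eomes under its 16. That of Krt8 stayed between -1.46 and -0.57 and that of Krt18 between -2.29 and -0.65, while that of Eomes changed sign. The count of genes past FDR 0.05 between 8F and 4F was 1822, and 994 without a mean-variance trend, 164 with the replicate block, and 306 to 2221 as single libraries were left out (306 without the first and 357 without the second 8F library, 943, 924 and 1021 without the 4F libraries of day 21). For day 21 minus day 7 the count was 8847 and stayed between 7040 and 8924. The share of these calls that were higher on day 21 was 62.3%. It was 48.6% with median-of-ratios scaling, 52.0% with quantile normalization and 37.3% with voom, where the median log2 difference of all genes was -0.06, 0.04 and -0.32 in place of 0.17. For 8F minus 4F the share that was higher in 8F was 47.3%, 61.1% without a trend, 62.7% with voom and 73.5% and 71.1% without the first and the second 8F library. The cause was not tested.

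Equal replicate numbers did not deviate together (correlations of deviations -0.037 to 0.011). In a group of 2 libraries the deviations mirror each other, so this cannot decide whether the numbers pair the samples. With the replicate block 7241 genes passed between the days. Of the calls of genes named by rule, which leaves out Prph, 2 of 14 (8F minus 4F) and 41 of 45 (day 21 minus day 7) passed. The 45 include calls of such genes that are not given above, such as the difference of Nlrp5 between the days. All 14 and all 45 kept their direction in the 16 settings without the block, in which 1 and 36 passed in every setting. Depth limits Krt18, Hand1 and Krt7 on day 21, which rest on few read pairs, and values between day 7 and day 21 also differ in cells per sample.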
